A study of Rattus norvegicus with 17 samples.

Results

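The genes described are 5 microglia genes, Aif1, Csf1r, Itgam, Cd68 and Tyrobp, in RNA sequencing of the rat hippocampus. They were chosen by Ensembl identifiers that came with these symbols, since the table of values names genes by identifier alone, and they are 5 of the 26402 genes it lists. The pairing of identifier and symbol could not be checked against an annotation here. The question was whether their levels differed between rats given enzastaurin (ENZ, an inhibitor selective for protein kinase C-β) and rats given vehicle, and whether they varied together from animal to animal. All rats were virgin males of the Fischer-344 strain (Fisher-344 in the sample labels), aged 12 months and trained in a water maze. The 7 ENZ rats received ENZ at 25 mg/kg in polyethylene glycol under the skin on each of 3 days, and the 10 vehicle rats received polyethylene glycol alone. The rats were killed right after the last maze trial, and each library holds the left CA1/CA2 region of 1 rat, dissected as whole tissue without the dentate gyrus and alveus. Rats are named by their labels, with G1 for vehicle and G2 for ENZ before the number of the rat. Levels are normalized counts, the reads of a gene after division by a size factor of its library.

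Microglia are the resident macrophages of the brain. They survey the tissue with moving processes, engulf debris and synapses, and depend on signals through the receptor encoded by Csf1r to survive. None of these genes is confined to microglia, because macrophages along vessels and in the meninges, and monocytes in blood, also use them. In whole tissue, fewer microglia and less RNA per microglial cell cannot be told apart. All 5 genes had reads in each of the 16 rats other than G1_80, from 4 reads of Cd68 up to 3318 reads of Csf1r in a rat. Further microglia genes and the marker lists of other cell types could not be looked up, because the gene table at hand matched 0 of the identifiers, so they were not analysed here.

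Vehicle rat G1_80 stands apart in depth and in composition. Its library held 33422 reads on genes, while the others held 2716777 to 20731523. ENSRNOG00000034234, the gene with the most reads in each of the other 16 libraries, was at 24702.5 normalized counts in it, on 239 reads (95% counting interval 21670 to 28041), and at 157155 to 303066 in the others. In G1_80 the gene with the most reads was ENSRNOG00000043866. At this depth 1 read was worth 103.4 normalized counts. Aif1, Itgam and Cd68 had 0 reads in it, Tyrobp had 1 read and Csf1r had 2 reads. At the median level of the other vehicle rats, that library would have held 0.855 reads of Aif1, 1.09 of Itgam, 0.0875 of Cd68, 0.563 of Tyrobp and 9.08 of Csf1r. With the limit for a count of 0 set at 3 reads, 310.1 normalized counts, 0 reads of Aif1, Itgam and Cd68 do not show levels below those of the other rats. The two-sided 95% counting interval for 0 reads reaches higher, to 381.3. For the 2 reads of Csf1r it runs from 25.0 to 746.7, below the lowest other vehicle rat at 773.2. Such limits cover counting error only. Values are therefore given first for 16 rats, 9 vehicle and 7 ENZ, and then with G1_80. Over these 16 rats the groups had mean log10 reads of 6.78 in ENZ and 6.91 in vehicle (two-sided exact permutation test, p = 0.284).

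None of the 5 genes passed the test between ENZ and vehicle. Their log2 fold changes ran from -0.09 for Cd68 to 0.11 for Tyrobp, and ENZ and vehicle values overlapped in every one of them. The fold changes, ENZ over vehicle, are on the scale of log2(normalized count + 1), which understates the change of low genes. The tests beside them are two-sided exact permutation tests over 11440 splits of the rats.

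Csf1r (ENSRNOG00000018414), the receptor for the growth factors CSF1 and IL-34, ran in vehicle from 773.2 (G1_53) through a median of 938.04 to 1179 normalized counts (G1_89). In ENZ it ran from 722.02 (G2_125) through 918.7 to 989.7 (G2_71). The ENZ rats lay within or just below the vehicle range, with G2_125 low and the other 6 between 899.2 and 989.7. The mean was 926.3 ± 137.2 in vehicle (SD, n = 9) against 902.1 ± 84.7 with ENZ (SD, n = 7). The log2 fold change was -0.03 (SE 0.09), a fold of 0.979 with a 95% interval of 0.864 to 1.11 (exact permutation p = 0.749).

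Tyrobp (ENSRNOG00000020845) encodes an adaptor, also called DAP12, that carries signals from surface receptors such as TREM2. Its vehicle values ran from 43.3 (G1_53) through a median of 58.1 to 72.3 (G1_89), and its ENZ values from 51.2 (G2_116) through 58.3 to 93.9 (G2_152). Both medians were nearly equal, and G2_152 alone among the ENZ rats exceeded the highest vehicle rat. The log2 fold change was 0.11 (SE 0.14), a fold of 1.08 with a 95% interval of 0.885 to 1.32 (exact permutation p = 0.460). Without G2_152 it was 0.012, and with log10 reads as a covariate 0.049. Itgam (ENSRNOG00000019728), the alpha M integrin chain of a complement receptor, ran in vehicle from 86.1 (G1_134) through 112.4 to 131.6 (G1_89). In ENZ it ran from 97.7 (G2_26) through 105.1 to 140.9 (G2_152). G2_152 was again the highest rat, and the other 6 ENZ rats lay inside the vehicle range. The fold was 1.02 with a 95% interval of 0.887 to 1.18 (log2 fold change 0.03, SE 0.10, exact permutation p = 0.751).

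Aif1 (ENSRNOG00000000853) encodes a calcium-binding protein of the actin cytoskeleton, the common stain for microglia. It ran in vehicle from 71.7 (G1_18) through 88.4 to 119.7 (G1_98), and in ENZ from 65.9 (G2_125) through 100.5 to 115.2 (G2_26). G2_125 was lowest for Aif1 as for Csf1r, and the other 6 ENZ rats lay inside the vehicle range. The fold was 1.04 with a 95% interval of 0.862 to 1.25 (log2 fold change 0.05, SE 0.13, exact permutation p = 0.699). Cd68 (ENSRNOG00000037563), a glycoprotein of lysosomes in phagocytes, was near the floor of the test. It ran in vehicle from 6.41 (G1_18) through 9.04 to 14.4 (G1_107), and in ENZ from 5.31 (G2_62) through 9.26 to 14.3 (G2_152). These values rest on 4 to 42 reads per rat, and the groups overlapped almost fully. The fold was 0.942 with a 95% interval of 0.705 to 1.26 (log2 fold change -0.09, SE 0.20, exact permutation p = 0.654).

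**Figure D1:**
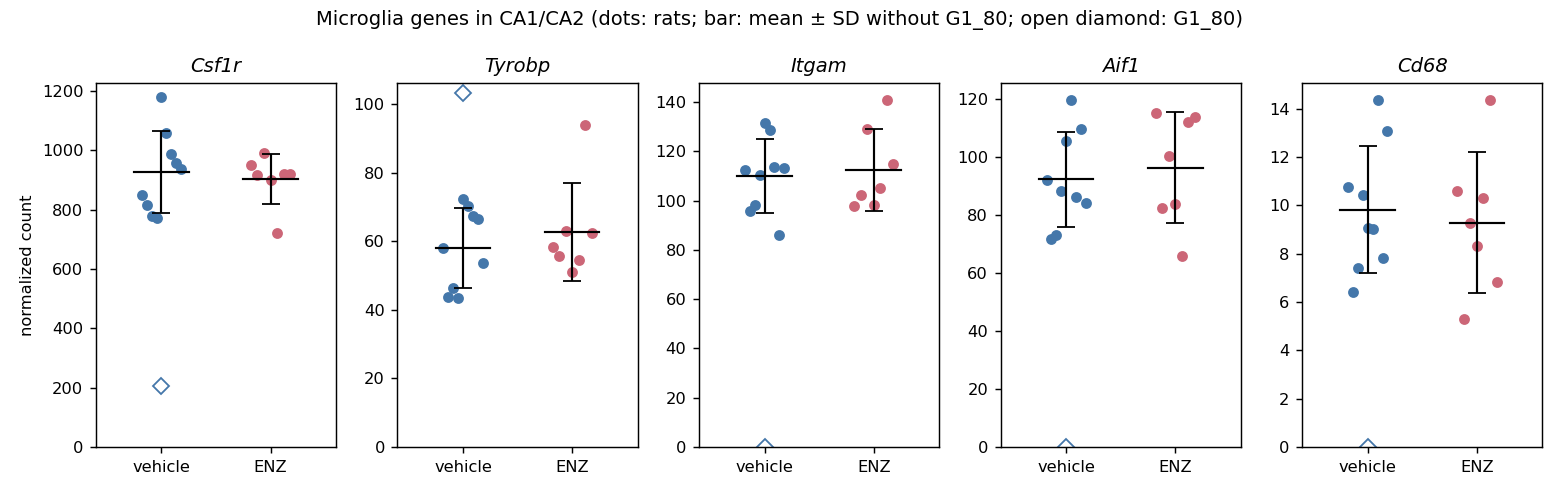
Normalized counts (y axis, from 0) of the 5 genes in vehicle and ENZ rats, 1 dot per rat, with bars for the mean ± SD of 9 vehicle and 7 ENZ rats and an open diamond for vehicle rat G1_80. The groups overlap for each gene, and G1_80 lies at 0 for Aif1, Itgam and Cd68 but above the other rats for Tyrobp.

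Across all 13853 genes with a median of at least 5 normalized counts, limma with Benjamini-Hochberg adjustment called 0 genes (0%), and the adjusted p of each of the 5 genes was 0.9998. At an unadjusted p under 0.05 it called 324 genes (2.34%), none of them among the 5, while edgeR over the same genes called 0 after adjustment and 338 before it. DESeq2, run without the filter over 20796 genes, called 0 and 309. The groups did not overlap for 1 gene of all those tested (0.00722%) and for 0 of the 5. Of the 5 genes, 3 were higher in ENZ, where 48.1% of all genes were, and their median log2 fold change was 0.03 against -0.0043 for all genes. The signs behind that count are not firm. Leaving out certain single rats turned Csf1r or Cd68 positive or Itgam negative. The most abundant gene as a covariate, chosen after seeing the data, turned Aif1 and Itgam negative. The 95% intervals of the fold reach down to 0.705 for Cd68 and up to 1.32 for Tyrobp, so differences of that size between the groups could have been missed. Serping1 (ENSRNOG00000007457), a complement inhibitor that the study listed by its p-value, had a mean of 18.5 ± 4.81 (SD, n = 9) in vehicle against 30.7 ± 9.41 (SD, n = 7) with ENZ, and the same adjusted p of 0.9998 by limma. Its fold was 1.62 with a 95% interval of 1.22 to 2.16 (exact permutation p = 0.0035). Unlike the 5 genes, it was picked by its p-value in these same data, so that unadjusted p is no independent evidence.

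With G1_80 included (17 rats), the log2 fold changes were 0.71 for Aif1 (SE 0.76), 0.71 for Itgam (SE 0.78), 0.25 for Cd68 (SE 0.44), 0.18 for Csf1r (SE 0.26) and 0.03 for Tyrobp (SE 0.20). Csf1r and Cd68 thereby changed direction, and the median over all genes moved from -0.0043 to 0.16. None of the 5 passed limma with Benjamini-Hochberg adjustment over 13844 genes, where their lowest adjusted p was 0.786. Exact permutation p-values over 19448 splits were 0.605 for Aif1 (n = 10 vehicle and 7 ENZ), 0.632 for Itgam, 0.767 for Cd68, 0.746 for Csf1r and 0.876 for Tyrobp.

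The genes differed in how much of their spread lay beyond counting error. Over the 16 rats the SD as a percent of the mean (coefficient of variation) was 12.5% for Csf1r, 13.7% for Itgam, 18.2% for Aif1, 21.1% for Tyrobp and 27.9% for Cd68, and its median over all genes was 13.8%. Read counting alone would give 3.06% for Csf1r, 8.69% for Itgam, 9.60% for Aif1, 12.2% for Tyrobp and 29.7% for Cd68. The spread of Cd68 was thus no larger than its counting error, and the animal-to-animal variation of that gene could not be measured at this depth. For Csf1r, which had the most reads, most of the spread lay beyond counting error, and the highest rat was 1.63 times the lowest. For Tyrobp the highest rat was 2.17 times the lowest.

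Across the 16 rats, 4 of the 10 pairs of the 5 genes had an unadjusted permutation p under 0.05 for Pearson's r of the log2 values. For comparison, 5.18% (Cd68) to 17.7% (Csf1r) of all genes had an unadjusted p under 0.05 in limma with 1 of the 5 as predictor. The sign of r was positive in 10 of 10 pairs, with values from 0.10 to 0.70 and a median of 0.46. Over all other genes, the median r with a given one of the 5 lay between -0.02 and 0.0030, and 47.6% to 50.3% of them were positive. The points share the size factors and depth of the libraries. Aif1 and Csf1r had r = 0.70 (two-sided permutation p = 0.00238) and Spearman's rho of 0.66 (p = 0.00643). Aif1 and Tyrobp had r = 0.69 (permutation p = 0.00263) and rho of 0.70 (p = 0.00337). Csf1r and Tyrobp had r = 0.65 (permutation p = 0.00611) and rho of 0.80 (p = 0.00042). Tyrobp and Itgam had r = 0.63 (permutation p = 0.00853) and rho of 0.63 (p = 0.0113). Tyrobp, the adaptor, was a partner in 3 of these 4 pairs. Without the pair of rats farthest from the median of the gene named first in the order Aif1, Csf1r, Itgam, Cd68 and Tyrobp, r was 0.55, 0.73, 0.70 and 0.74 for the 4 pairs in the order given.

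The other 6 pairs were weaker. Itgam had r = 0.46 with Cd68 (permutation p = 0.0698; rho 0.43, p = 0.101), 0.46 with Csf1r (permutation p = 0.0719; rho 0.48, p = 0.0622) and 0.42 with Aif1 (permutation p = 0.106; rho 0.42, p = 0.101). Cd68 had r = 0.41 with Tyrobp (permutation p = 0.118; rho 0.29, p = 0.273), 0.16 with Aif1 (permutation p = 0.554; rho 0.21, p = 0.431) and 0.10 with Csf1r (permutation p = 0.705; rho 0.18, p = 0.501). The pairs with Cd68 include the lowest r values, and its spread did not exceed counting error. Without the 2 farthest rats the r of all 10 pairs ran from 0.23 to 0.74. Single rats moved r in the stronger and in the weaker pairs. For the stronger pairs, leaving out 1 rat gave r of 0.48 to 0.82 for Itgam with Tyrobp and 0.60 to 0.81 for Csf1r with Tyrobp. For Aif1 it gave 0.64 to 0.74 with Tyrobp and 0.61 to 0.74 with Csf1r. Leaving out 1 rat gave r of 0.20 to 0.50 for Cd68 with Tyrobp and 0.040 to 0.27 for Cd68 with Aif1. It gave 0.024 to 0.18 for Cd68 with Csf1r and 0.33 to 0.51 for Cd68 with Itgam. For Itgam it gave 0.34 to 0.63 with Aif1 and 0.34 to 0.59 with Csf1r.

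Within the 9 vehicle rats the 10 values of r ran from 0.10 to 0.91 with a median of 0.46, and within the 7 ENZ rats from -0.12 to 0.87 with a median of 0.45. The largest in vehicle was Csf1r with Tyrobp, at 0.91 against 0.27 in ENZ, and the largest in ENZ was Itgam with Tyrobp, at 0.87 against 0.45 in vehicle. Whether these differ between the groups was not tested. With G1_80 added, the pairs not holding Tyrobp had r of 0.88 to 0.99, and those holding it -0.51 to -0.37. Those values rest on 1 rat whose levels come from 0 to 2 reads.

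**Figure D2:**
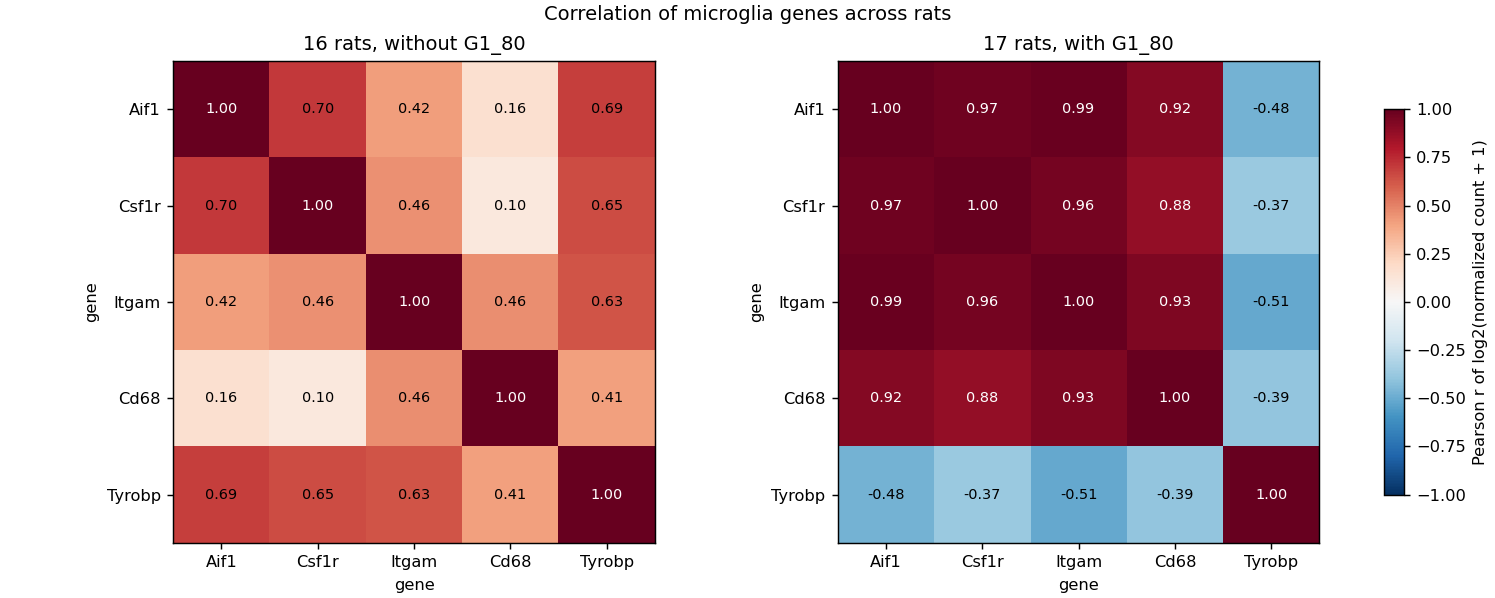
Pearson's r of log2(normalized count + 1) between the 5 genes (both axes), for 16 rats on the left and for 17 rats with G1_80 on the right, colored from -1 to 1. Without G1_80 all pairs are positive with a highest r of 0.70, and with it the 4 pairs holding Tyrobp turn negative.

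The level of each gene was next used in limma to predict every other gene, so that the pairs can be read against all 13852 genes. With Csf1r as predictor, 354 genes passed the Benjamini-Hochberg adjusted test (2.56%), 254 of them with a positive slope, and of the other 4 microglia genes Aif1 did (adjusted p = 0.0499) while Tyrobp did not (adjusted p = 0.0875). With Tyrobp as predictor, 55 genes passed (0.397%), 53 of them with a positive slope, but 0 of the 4 microglia genes, of which Aif1 came closest (limma adjusted p = 0.125). With Aif1, Itgam or Cd68 as predictor, limma called 0 genes (0%, 0% and 0%). At an unadjusted p under 0.05 it called 2457 genes (17.7%) for Csf1r, 1813 (13.1%) for Tyrobp, 1675 (12.1%) for Aif1, 982 (7.09%) for Itgam and 718 (5.18%) for Cd68. Of the other 4 microglia genes, 2 were called at that threshold for Csf1r, 3 for Tyrobp, 2 for Aif1, 1 for Itgam and 0 for Cd68. So 1 of 20 ordered pairs passed, close to the threshold. It was lost with a pseudocount of 5, no filter, TMM or quantile scaling, a covariate for depth, treatment or the most abundant gene, and leaving out any 1 of 13 rats.

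Each gene was also set against the mean of the other 4, as z-scores over the 16 rats, as a description. Tyrobp followed that mean most closely, at r = 0.81, and 55 of 13849 other genes (0.397%) had a higher r with it. Aif1 (r = 0.64), Itgam (r = 0.64) and Csf1r (r = 0.62) came next, with 365, 487 and 363 genes higher. Cd68 had r = 0.34, which 2362 genes (17.1%) exceeded. The rats with the highest mean z-score of the 5 genes were G2_152 (1.37), G1_89 (1.01) and G1_98 (0.905), and the lowest were G1_18 (-1.21), G1_44 (-1.07) and G2_125 (-0.804). G2_152 was above the mean in 5 of 5 genes, and G1_18, G1_44 and G2_116 in 0 of 5. Both ends of this order hold rats of both groups.

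Outside the 5 genes, the closest to their mean z-score among 9649 genes with a median of at least 50 were ENSRNOG00000002045 (r = 0.93, median 341.8 normalized counts) and ENSRNOG00000030478 (r = 0.91, median 19914) over the 16 rats. The table gives no names for them. Their r describes likeness of pattern and says nothing of function.

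The most abundant gene in each of the 16 libraries, ENSRNOG00000034234, was singled out after its values were seen. As a predictor of the 5 genes it passed the test across all genes for 1 of them, Tyrobp. It took 3.04% (G1_44) to 5.42% (G2_152) of the reads in the 16 rats, and the 3 rats with the most of it, G2_152, G1_98 and G1_89, were also the 3 with the highest mean z-score. Its r over the 16 rats was 0.90 with Tyrobp (permutation p = 1e-05, the smallest that the permutations can give; rho 0.87), 0.69 with Aif1 (permutation p = 0.0037; rho 0.72) and 0.67 with Csf1r (permutation p = 0.00437; rho 0.76). It was 0.58 with Itgam (permutation p = 0.0191; rho 0.62) and 0.48 with Cd68 (permutation p = 0.0612; rho 0.29). Without the 2 farthest rats, r was 0.87 with Tyrobp and 0.53 to 0.69 with the other 4. Within groups, r with Tyrobp was 0.92 in vehicle and 0.87 in ENZ. It was 0.93 in vehicle and 0.24 in ENZ with Csf1r, and 0.36 and 0.72 with Cd68, and whether these differ between the groups was not tested. As a predictor in limma it called 251 genes (1.81%) after Benjamini-Hochberg adjustment, of which Tyrobp was 1 (adjusted p = 0.0013). Aif1 (adjusted p = 0.0739), Csf1r (0.0783), Itgam (0.218) and Cd68 (0.407) did not pass. At an unadjusted p under 0.05 limma called 2026 of 13852 genes with this predictor. Genes whose r with the most abundant gene exceeded that of a member numbered 24 for Tyrobp, 338 for Aif1, 368 for Csf1r, 693 for Itgam and 1200 for Cd68. With that gene as a covariate, a setting added after the data were seen, the median r of the 10 pairs was 0.13 in place of 0.46. The unnamed genes closest to the mean z-score, ENSRNOG00000002045 and ENSRNOG00000030478, had r of 0.85 and 0.95 with it, and its own r with the mean z-score, 0.88, ranked 12 among the 9649 genes. What sets the level of that gene in a library was not tested.

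**Figure D3:**
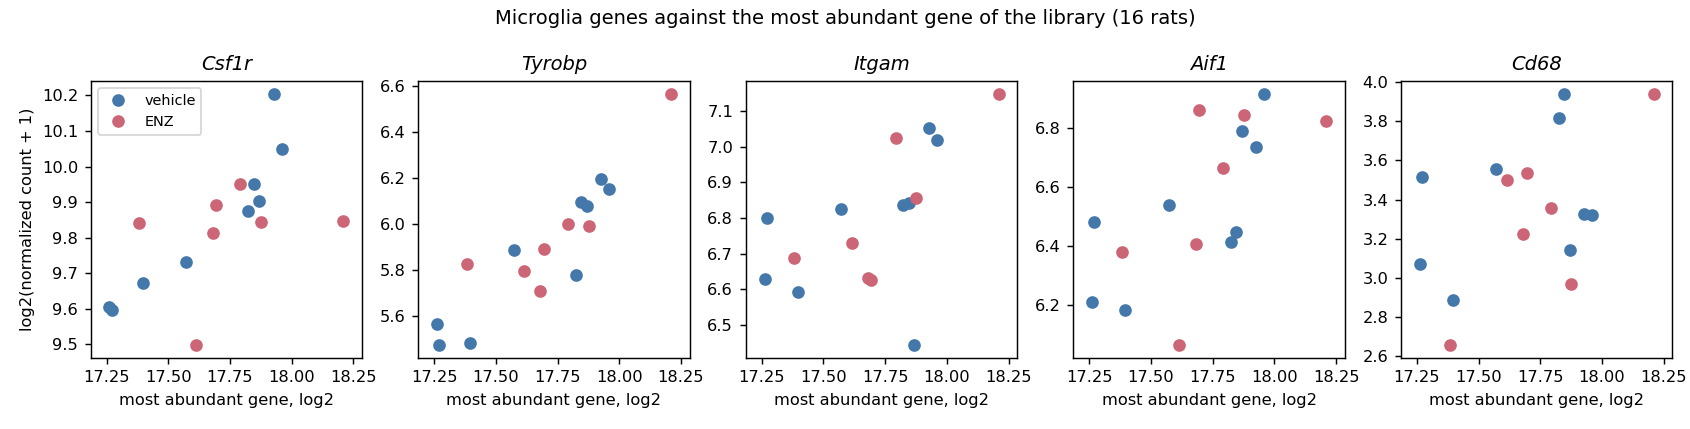
Log2(normalized count + 1) of each microglia gene (y axis) against that of the most abundant gene of the libraries (x axis) in 16 rats, 9 vehicle and 7 ENZ. Tyrobp follows that gene most closely (r = 0.90), and G2_152 is at the far right in each panel.

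Depth and a gene of blood were compared with the 5 genes in the same way. Log10 reads had r from -0.43 (Tyrobp, permutation p = 0.0998) to 0.16 (Itgam). Without the 2 rats farthest from its median, G1_134 and G1_8, r ran from -0.49 to -0.05, and Itgam was at -0.13. As a predictor it called 0 genes (0%) by limma, with 390 at an unadjusted p under 0.05. Hba2 (ENSRNOG00000047321), an alpha-globin gene of red blood cells whose near-identical copies make its counts uncertain, had r from -0.23 to 0.03 with the 5 genes. Without the 2 rats farthest from its median, G1_8 and G1_44, these ran from -0.04 to 0.41, the highest with Csf1r (rho 0.30 over the 16 rats, permutation p = 0.252). As a predictor it called 34 genes (0.245%) and 0 of the 5. In all, 15 such relations with depth, Hba2 and the most abundant gene were computed.

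Promoters are shown, as sequence context for the correlations above, for the members found in the RefSeq table of assembly GRCr8. The 3 pairs among the genes shown did not pass the test in either order. Of the 5 genes 3 matched, Itgam, Cd68 and Csf1r, and Aif1 and Tyrobp are named only. PU.1, a transcription factor that macrophages and microglia need, binds sites with a core of GGAA, often within the string GAGGAA. The letters GAGGAA were searched on both strands, and their matches are in capitals (TTCCTC where the match is on the other strand). Each sequence runs from 250 bases before to 50 bases after the start of the gene, on the strand of the gene: Itgam at chr1:192089342-192089641 (+), Cd68 at chr10:54882392-54882691 (-) and Csf1r at chr18:56834129-56834428 (+).
Itgam: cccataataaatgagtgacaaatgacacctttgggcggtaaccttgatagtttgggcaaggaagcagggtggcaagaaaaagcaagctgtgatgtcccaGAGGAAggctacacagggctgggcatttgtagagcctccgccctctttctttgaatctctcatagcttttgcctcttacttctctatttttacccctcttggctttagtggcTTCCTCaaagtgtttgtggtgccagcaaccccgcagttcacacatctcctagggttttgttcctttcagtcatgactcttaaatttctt
Cd68: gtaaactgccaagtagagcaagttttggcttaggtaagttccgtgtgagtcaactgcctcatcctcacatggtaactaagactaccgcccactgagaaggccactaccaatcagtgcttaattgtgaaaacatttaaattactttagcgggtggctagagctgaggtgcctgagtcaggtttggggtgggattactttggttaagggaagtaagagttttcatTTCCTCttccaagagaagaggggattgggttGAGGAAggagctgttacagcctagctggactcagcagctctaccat
Csf1r: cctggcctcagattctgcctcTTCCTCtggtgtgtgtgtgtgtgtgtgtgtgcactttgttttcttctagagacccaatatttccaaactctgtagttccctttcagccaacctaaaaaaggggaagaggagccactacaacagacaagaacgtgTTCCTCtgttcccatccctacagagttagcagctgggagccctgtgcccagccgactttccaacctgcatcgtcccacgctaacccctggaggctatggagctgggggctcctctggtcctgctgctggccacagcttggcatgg

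All 3 promoters held GAGGAA at 2 places each, counted from base 1 of the sequence shown. In Itgam the matches start at bases 100 and 212, in Cd68 at bases 224 and 255, and in Csf1r at bases 22 and 156. It is a common string, found in 27.6% of all 33469 promoters of the table. The longer GAGGAAG, which contains it, was also in 3 of 3 and in 12.4% of all. The still longer GAGGAAGT (2.42% of all) was in 0 of 3, as was AGAGGAAGT (0.792%). GGAAGT, which overlaps these, was in the Cd68 promoter and in 22.6% of all promoters. TGAGTCA, a string that AP-1 factors bind, was in the Cd68 promoter and in 4.63% of all. The 6 strings were picked with the genes known, and a match describes letters in this window and is no evidence of binding.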

How the data were processed

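RNA of the left CA1/CA2 region was sequenced in 17 rats, grouped by the treatment in the labels. Per the submitters' processing notes, reads were aligned to rn5 with STAR (2.4.0a) and counted with featureCounts (1.4.4), and DESeq2 is named without a version. Which annotation release and which strand setting were used is not given in the sources used here. The deposited values are a signal that is never negative, normalized counts that the authors made by dividing read counts by 1 size factor per rat. Dividing by the smallest step of each rat turned 100% of nonzero values into whole numbers (tolerance 0.1 reads), taken as recovered reads. The table held 0 columns without a sample. Counts of different rats were compared for identity, and the closest libraries, G1_134 and G2_161, had 1.795 as chi-square over degrees of freedom. The study removed outlying samples by principal components without naming them; here G1_80 was left out of the first fit for its depth.

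ENZ and vehicle were compared with limma (3.58.1, R 4.3.3) on log2(normalized count + 1) with a mean-variance trend. Genes needed a median of at least 5 normalized counts, with Benjamini-Hochberg adjustment over all of them. Single genes were compared by exact permutation tests, and correlations by 100000 permutations, using scipy 1.17.1 and numpy 2.4.6 under Python 3.11.15. The limma fits were tested on simulated data. Alternatives were pseudocounts of 0.1 and 5, no filter, a median of at least 50, TMM and quantile scaling, all 17 rats, leaving out G1_44 or each rat in turn, depth or treatment as a covariate, and edgeR (4.0.16) and DESeq2 (1.42.0) on recovered reads. The most abundant gene as a covariate was chosen after seeing the data. Genes named are the 5 members, Hba2 and Serping1 by identifiers the study gives, and the 2 genes of at least 50 normalized counts closest to the members' mean z-score. The genes with the most reads in a library, ENSRNOG00000034234 and in G1_80 ENSRNOG00000043866, are named as well. The members and lists were chosen with earlier results of these data known.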

Additional observations from a re-analysis of the deposited data

Results flagged for a closer look

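Dixon's test, at its 95% critical value, compared the distance between the most extreme rat of a group and its neighbour with the full span of that group. Without G1_80 the value was exceeded in 2 of 10 combinations of a gene and a group, where chance gives about 1 in 20, or 0.5. The vehicle group was tested again with G1_80, where 4 of 5 genes exceeded it, each through that rat, and its depth limits what those values can show. Log2(normalized count + 1) is given.

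Among the 10 vehicle rats, G1_80 had the lowest value for Csf1r (7.70, the next lowest rat at 9.60). It was also lowest for Aif1 (0, next 6.18), Itgam (0, next 6.44) and Cd68 (0, next 2.89). These are 0 reads for Aif1, Itgam and Cd68 and 2 reads for Csf1r, in a library where 1 read is worth 103.4 normalized counts. The counting interval for 0 reads reaches 381.3 normalized counts, above every other vehicle rat for Aif1, Itgam and Cd68. The values of 0 therefore do not show lower levels of these genes in G1_80. Among the 7 ENZ rats, G2_125 was low for Csf1r (9.50, next 9.81), on 701 reads. G2_152 was high for Tyrobp (6.57, next 5.999) and gave the most abundant gene 5.42% of its reads, the highest share of the 17 rats.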

How the results depend on the processing

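Limma with Benjamini-Hochberg adjustment, edgeR and DESeq2 called 0 genes between ENZ and vehicle in all 28 alternatives (leaving out G1_44 is counted both by itself and among the rats left out in turn), and the lowest adjusted p of a microglia gene over them was 0.786. The count at an unadjusted p under 0.05, 324, was 625 with no filter, 201 with a median of at least 50 (fewer genes tested, and no value for Cd68) and 38 with all 17 rats, and leaving out 1 rat gave 287 to 458. With all 17 rats the direction of Csf1r (0.18) and Cd68 (0.25) reversed, and over all genes the median moved to 0.16. With the most abundant gene as a covariate, chosen after seeing the data, Aif1 was at -0.0088, Itgam at -0.0063, Tyrobp at 0.025, Csf1r at -0.074 and Cd68 at -0.15. With log10 reads as a covariate Aif1 was at 0.035, Itgam at 0.053, Tyrobp at 0.049, Csf1r at -0.058 and Cd68 at -0.073. Leaving out 1 rat gave Csf1r -0.061 to 0.022 (positive without G1_89 or G2_125), Itgam -0.023 to 0.066 (negative without G1_134, G2_71 or G2_152), Cd68 -0.19 to 0.023 (positive without G2_62), Aif1 0.0065 to 0.14 and Tyrobp 0.012 (without G2_152) to 0.16. The median r of the pairs, 0.46, was 0.64 with a median of at least 50, where the pairs of Cd68 have no value, 0.90 with all 17 rats and 0.13 with the most abundant gene as a covariate, and 0.41 to 0.61 when 1 rat was left out. With 17 rats r reversed to -0.48 for Aif1 and Tyrobp, -0.37 for Csf1r and Tyrobp, -0.51 for Itgam and Tyrobp and -0.39 for Cd68 and Tyrobp. With the most abundant gene as a covariate it reversed to -0.26 for Aif1 and Cd68, -0.34 for Csf1r and Cd68 and -0.069 for Cd68 and Tyrobp. The number of ordered pairs past the adjusted p, 1, was 13 with 17 rats and 0 with a pseudocount of 5, no filter, TMM or quantile scaling, depth, treatment or the most abundant gene as a covariate, or without G1_44. It was 0 to 3 when 1 rat was left out, with 3 without G2_152. The cause was not tested. Depth limits Cd68 most, at 4 to 42 reads per rat. No paired analysis was possible because the groups share no replicate numbers. Rats were maze-tested in squads balanced over treatment, and since the squad of each rat is not given in the sources used here, it entered no fit.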
